A study of Rattus norvegicus with 54 samples.

Results

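Periostin (Postn), tenascin C (Tnc), fibronectin (Fn1), lysyl oxidase (Lox) and Sparc are genes of matrix remodelling that are not collagens, and their levels were followed in rats fed a high-fructose diet (HFrD) with or without nordihydroguaiaretic acid (NDGA), a lignan of the creosote bush with antioxidant and lipoxygenase-inhibiting properties. The 5 genes were found by symbol among 19791 genes of a single-colour rat array, with earlier results of these data known. Male Sprague-Dawley rats received HFrD with NDGA, HFrD alone or a chow diet, and RNA came from gastrocnemius muscle, epididymal adipose tissue and liver. Each of these 9 combinations of tissue and diet was deposited both without and with the label INS, which gives 18 groups of 3 arrays, 54 in all. The text names them HFrD-NDGA-INS, HFrD-INS, chow-INS, HFrD-NDGA, HFrD and chow. What INS stands for, and how the INS rats or samples were handled, is not explained in the sources used here, nor is the age of the rats. The series text gives 2.4 g NDGA per kg of diet for 8 weeks, whereas the treatment text gives 2.5 g and 16 weeks. RNA of the rats of a group was pooled in equal amounts and 3 repeats were run, so the SDs, SEs and p-values below measure the spread between arrays of a pool and not between rats.

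The extracellular matrix is a mesh of collagens, glycoproteins and proteoglycans that is laid down mostly by fibroblasts and remodelled after injury, in growth and in fibrosis. Fibronectin is a scaffold glycoprotein that cells grip through integrins and on which collagen is first assembled, and hepatocytes also secrete a soluble form into plasma. Periostin, tenascin C and Sparc are matricellular proteins, which modulate how cells and matrix interact rather than bearing load themselves. Periostin and tenascin C are known for low levels in resting adult tissue and strong induction in injured or regenerating muscle. Sparc binds collagen and takes part in its processing, and it is abundant in fat. Lysyl oxidase is the secreted copper enzyme that starts the cross-linking of collagen and elastin. Transforming growth factor beta (TGF-beta), acting through SMAD proteins, is a well-known inducer of this class of genes.

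The bases before the start of these genes are shown because the genes stood together in 1 group of muscle arrays, and because SMAD, TEAD and AP-1 factors are known regulators of matrix genes. RefSeq promoters on build GRCr8 were matched for 3 of the 5 genes, Postn, Tnc and Sparc. The 250 bases before each start lay at chr2:140677811-140678060 on the plus strand for Postn, at chr5:82476132-82476381 on the minus strand for Tnc and at chr10:40038817-40039066 on the minus strand for Sparc. They are printed 5′ to 3′ on the strand of the gene. Capitals mark matches to TATAAA, read on the gene's strand only, and to GGAATG (the TEAD core) and CAGAC (a SMAD box), read on both strands, so that CATTCC and GTCTG are matches on the other strand.
Postn: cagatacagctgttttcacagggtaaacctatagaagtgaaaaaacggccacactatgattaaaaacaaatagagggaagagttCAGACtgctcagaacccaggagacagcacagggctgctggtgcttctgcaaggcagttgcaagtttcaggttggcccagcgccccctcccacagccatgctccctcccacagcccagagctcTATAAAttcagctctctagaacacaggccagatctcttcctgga
Tnc: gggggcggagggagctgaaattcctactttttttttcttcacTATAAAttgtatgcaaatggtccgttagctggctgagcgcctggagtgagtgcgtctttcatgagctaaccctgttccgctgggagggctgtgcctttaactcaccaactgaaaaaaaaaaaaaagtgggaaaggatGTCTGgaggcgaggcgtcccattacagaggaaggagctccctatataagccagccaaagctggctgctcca
Sparc: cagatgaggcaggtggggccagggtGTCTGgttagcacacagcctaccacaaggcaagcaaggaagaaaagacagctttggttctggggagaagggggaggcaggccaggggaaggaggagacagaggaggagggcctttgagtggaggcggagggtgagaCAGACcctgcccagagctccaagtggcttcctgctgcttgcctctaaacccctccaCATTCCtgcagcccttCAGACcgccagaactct
Postn had TATAAA from 44 to 39 bases before the start and a SMAD box from 166 to 162. Tnc had TATAAA from 208 to 203 bases before the start and a SMAD box from 71 to 67. Sparc had no TATAAA, a TEAD core from 33 to 28 bases before the start, and SMAD boxes from 225 to 221, from 89 to 85 and from 17 to 13. Among 33469 promoters of the same length, TATAAA was present in 8.06%, GGAATG in 12.1% and CAGAC in 42.9%. The AP-1 letters TGANTCA, present in 6.34% of all promoters, were found in none of the 3 windows. These matches describe the letters only.

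Levels are given as normalized intensity, the background-subtracted spot signal after quantile normalization within a tissue, with values under 16 set to 16. Differences are on the log2 scale with the SE of a limma fit to the 18 arrays of a tissue, and p-values are Benjamini-Hochberg adjusted over all 19791 genes, with 0.05 as the threshold. Array medians of the deposited signal ranged from 71 to 193, between 49.3 and 63.2% of probes were detected, and precision is set by there being 3 arrays a group. All 7 skeletal muscle markers were above background in every muscle group, all 7 adipocyte markers in every adipose group and all 6 hepatocyte markers in every liver group. Among the muscle groups the HFrD group stood farthest from its nearest neighbour (root mean square log2 distance 0.554, against 0.367 to 0.384 for the others), and so did the HFrD group of adipose tissue (0.765, against 0.408 to 0.522). In these bulk samples, fewer cells of a type and less RNA per cell cannot be told apart.

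In muscle without INS, all 5 genes were far higher on the 3 HFrD arrays than on any other array, and their levels in HFrD-NDGA muscle lay near those of chow muscle. These differences belong to the contrasts that were known when the genes were chosen, so they are given as a description with no test. Among all genes 40.4% passed the threshold between HFrD and chow and 38.5% between HFrD-NDGA and HFrD, and nothing is read from the count of the 5 genes against those shares. Postn had 732, 729.8 and 722 in HFrD-NDGA muscle, 12193, 12369.8 and 13119 in HFrD muscle and 806, 947 and 844 in chow muscle. The difference was 3.86 ± 0.08 (SE) for HFrD against chow, or 14.5-fold, and -4.11 ± 0.08 for HFrD-NDGA against HFrD. Tnc had 94.9, 80.2 and 95.2 in HFrD-NDGA muscle, 1504, 1515 and 1511 in HFrD muscle and 107.97, 100.7 and 100.4 in chow muscle. It was 14.7-fold higher in HFrD than in chow muscle (3.87 ± 0.09) and differed by -4.07 ± 0.09 between HFrD-NDGA and HFrD. For Postn and Tnc the HFrD arrays lay close together and an order of magnitude above the other groups. Their HFrD-NDGA arrays lay just under the chow arrays without overlap. For Tnc the HFrD-NDGA and chow arrays were near the lowest detected signal of the muscle arrays, 65 to 89.

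Fn1, the scaffold glycoprotein, had 4683, 3598 and 4025 in HFrD-NDGA muscle, 14806, 17055 and 17130.0 in HFrD muscle and 3033, 2949.7 and 3016 in chow muscle. HFrD exceeded chow by 2.44 ± 0.08, or 5.43-fold, and HFrD-NDGA differed from HFrD by -2.0 ± 0.08. Unlike Postn and Tnc, Fn1 was higher on every HFrD-NDGA array than on every chow array (0.44 ± 0.08). Lox, the cross-linking enzyme, had 223, 185 and 153 in HFrD-NDGA muscle, 607, 639 and 572 in HFrD muscle and an average of 116 ± 10.04 (SD, n = 3), with a highest array of 127.7, in chow muscle. It was 5.22-fold higher in HFrD than in chow muscle (2.38 ± 0.18), and its HFrD-NDGA arrays also lay above all chow arrays (0.67 ± 0.18). A second, dimmer probe for Lox, above background in muscle only in the HFrD group among these 3, differed by 3.26 for HFrD against chow and by -2.76 for HFrD-NDGA against HFrD. Sparc had the smallest difference of the 5, with 717, 956 and 992 in HFrD-NDGA muscle, 2425, 2833 and 2378 in HFrD muscle and 1055, 1196 and 1093 in chow muscle. Its differences were 1.19 ± 0.13 for HFrD against chow and -1.53 ± 0.13 for HFrD-NDGA against HFrD. The median over the 5 genes was 2.44 for HFrD against chow and -2.0 for HFrD-NDGA against HFrD, against -0.01 and 0.00 over all genes.

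**Figure D1:**
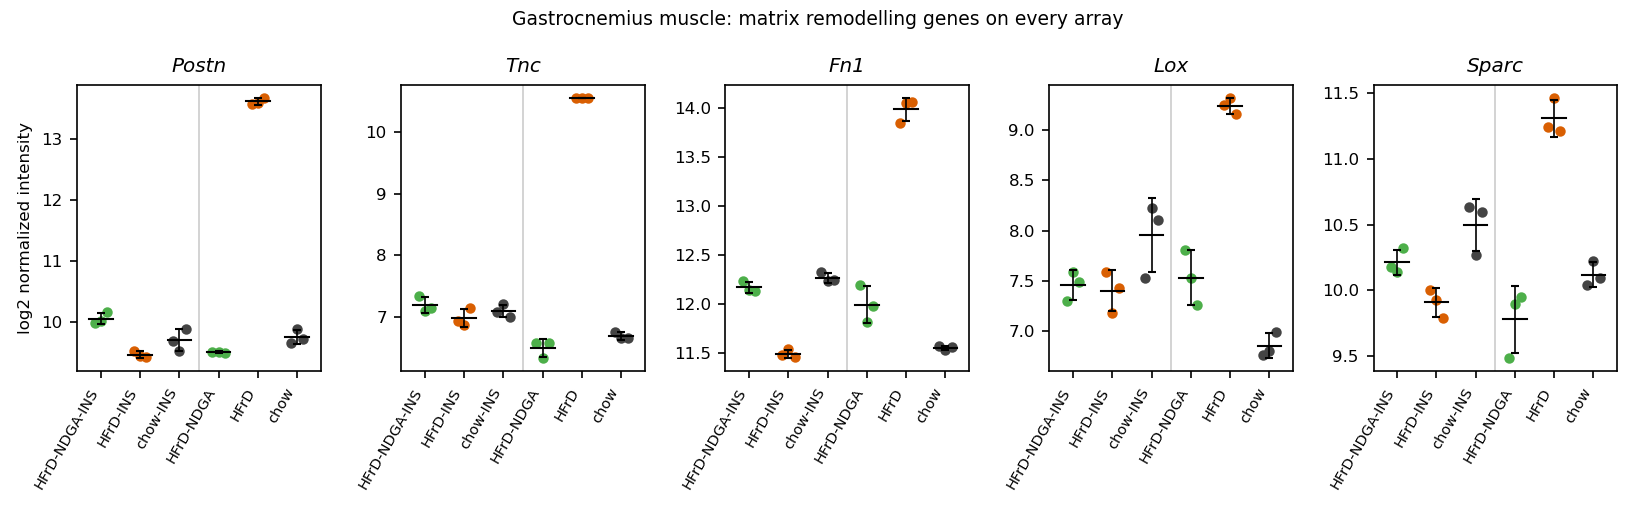
Log2 normalized intensity of Postn, Tnc, Fn1, Lox and Sparc on each of 18 muscle arrays (dots), with the mean (black bar) and SD (error bars) of the 3 arrays of a group; the grey line parts groups with INS from groups without, and each panel has its own axis. The 3 HFrD arrays stand above the other 15 in every panel, at 12193 to 13119 for Postn against at most 1151 elsewhere.

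The muscle arrays with INS, which are no part of the contrasts that led to the choice of genes, gave no such peak. Between HFrD-INS and chow-INS muscle, 23.7% of all genes passed the threshold. Of the 5 genes 3 did, Fn1, Sparc and Lox, and all 3 fell. Fn1 had 2848, 2975 and 2812 in HFrD-INS muscle, against 5122, 4817 and 4849 in chow-INS muscle, and fell by 0.78 ± 0.08 (adjusted p = 1.13e-05), or 1.71-fold. Sparc had 1028, 976 and 886 in HFrD-INS muscle, against 1589, 1235 and 1547 in chow-INS muscle, and fell by 0.59 ± 0.13 (adjusted p = 0.00420). The HFrD-INS arrays lay below all chow-INS arrays for both genes, although the Sparc call was lost without scaling of the arrays (-0.47, adjusted p = 0.145). Lox had 192, 146 and 173 in HFrD-INS muscle, against 185, 299 and 276 in chow-INS muscle. Its ranges overlapped, and its fall of 0.55 ± 0.18 (adjusted p = 0.0378) did not pass when HFrD-INS replicate 2 (-0.44, adjusted p = 0.141), HFrD-INS replicate 3 (-0.57, 0.0767), chow-INS replicate 2 (-0.42, 0.158) or chow-INS replicate 3 (-0.48, 0.128) was left out.

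Neither periostin nor tenascin C passed between HFrD-INS and chow-INS muscle. Postn had 740.1, 697 and 688 in HFrD-INS muscle, against 829.5, 737 and 945 in chow-INS muscle (-0.23 ± 0.08, adjusted p = 0.0545), and it passed when chow-INS replicate 2 was left out (-0.32, adjusted p = 0.00930). Tnc had 122, 116 and 141 in HFrD-INS muscle, against 135, 147 and 128 in chow-INS muscle (-0.12 ± 0.09, adjusted p = 0.430). Both genes thus had overlapping ranges where, without INS, HFrD and chow did not come near each other. The difference between the HFrD effects with and without INS was -4.10 ± 0.11 for Postn, -3.99 ± 0.12 for Tnc, -3.22 ± 0.11 for Fn1, -2.94 ± 0.25 for Lox and -1.78 ± 0.18 for Sparc. No p is given for these values, in muscle or in the other tissues, because they contain arrays without INS, on which the choice of genes rests.

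**Figure D2:**
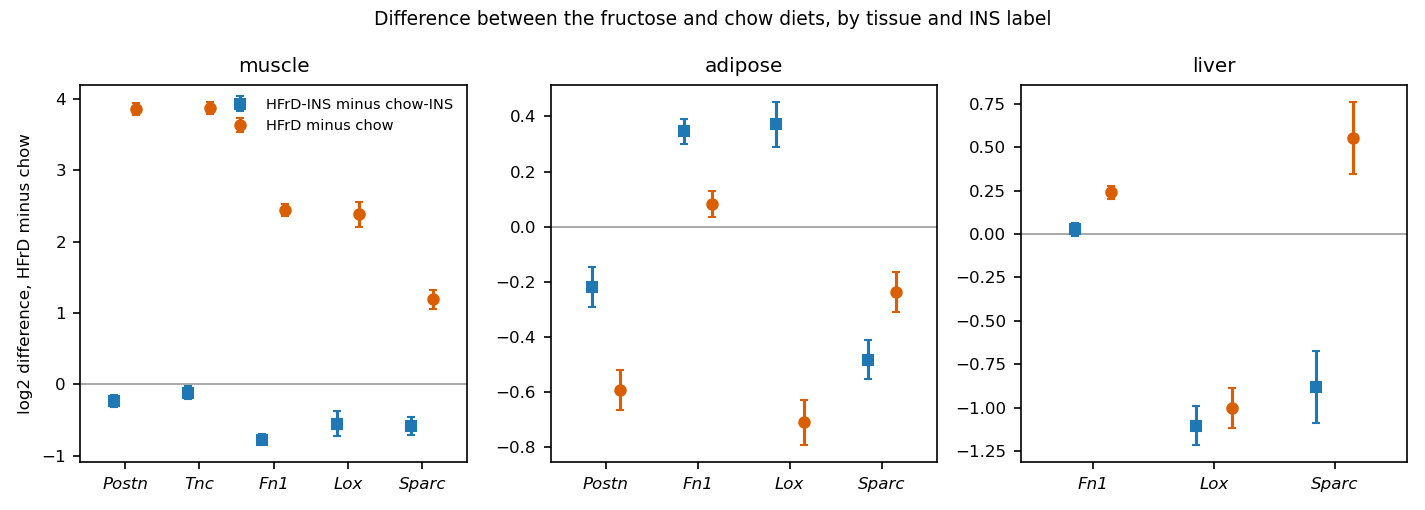
Log2 difference between the HFrD and chow diets (points, with SE bars) for each gene above background, on arrays with INS (blue squares, HFrD-INS minus chow-INS) and without INS (orange circles, HFrD minus chow), in muscle, adipose tissue and liver on separate axes. In muscle every orange point is above 1 and every blue point below 0, from -0.12 for Tnc to -0.78 for Fn1.

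NDGA on the fructose diet went with higher Fn1 and Postn in muscle with INS, the opposite sign to the arrays without INS. Between HFrD-NDGA-INS and HFrD-INS muscle 15.4% of all genes passed, and 2 of the 5 did. Fn1 had 4824, 4518 and 4491 in HFrD-NDGA-INS muscle, against the 2812 to 2975 of HFrD-INS muscle, and rose by 0.68 ± 0.08 (adjusted p = 6.50e-05). Postn had 1019, 1036 and 1151 in HFrD-NDGA-INS muscle, against 688 to 740.1 in HFrD-INS muscle, and rose by 0.59 ± 0.08 (adjusted p = 0.000249). For both genes every HFrD-NDGA-INS array exceeded every HFrD-INS array. Sparc had 1159, 1130.5 and 1280.0 in HFrD-NDGA-INS muscle (0.31 ± 0.13 against HFrD-INS, adjusted p = 0.144) and did not pass although its ranges did not overlap. Tnc had 161, 136 and 140.4 (0.21 ± 0.09, adjusted p = 0.142), passing only when HFrD-INS replicate 3 was left out (0.29, adjusted p = 0.0480). Lox had 158, 193 and 179.9, with a difference of 0.06 ± 0.18 (adjusted p = 1) that turned to -0.05 without HFrD-INS replicate 2 and to -0.01 without HFrD-NDGA-INS replicate 2. With the mean of all probes the Lox difference was 0.33 and passed (adjusted p = 0.0253). The second Lox probe was not above background in either of these groups.

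The INS label alone, on the chow diet, was accompanied by higher Lox, Fn1 and Tnc in muscle. Chow and HFrD-NDGA muscle without INS are arms of the contrasts that were known when the genes were chosen, so differences from them are a description with no test. Chow-INS exceeded chow muscle by 1.10 ± 0.18 for Lox (2.14-fold), by 0.72 ± 0.08 for Fn1, by 0.41 ± 0.09 for Tnc and by 0.38 ± 0.13 for Sparc, and for these 4 genes all chow-INS arrays lay above all chow arrays. Postn overlapped, and its difference of -0.05 ± 0.08 changed sign without chow replicate 2 (0.01) or chow-INS replicate 2 (0.04). Between HFrD-NDGA-INS and HFrD-NDGA muscle the difference was 0.70 ± 0.09 for Tnc, 0.55 ± 0.08 for Postn and 0.43 ± 0.13 for Sparc, without overlap, while Fn1 (0.18 ± 0.08) and Lox (-0.07 ± 0.18) overlapped.

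Other remodelling genes, taken from a list of 112 symbols grouped by role of which all but 7 were measured, and the collagens moved in the same contrasts. The list was chosen with earlier results of these data known, so its counts are a description with no test of the list. Between HFrD and chow muscle 71 list genes rose and 7 fell, 69 and 7 of them among the 92 above background, with a median of 0.74, and between HFrD-NDGA and HFrD 5 rose and 68 fell, with a median of -0.72. With INS the counts turned: 6 rose and 49 fell between HFrD-INS and chow-INS (median -0.27), 41 rose and 4 fell between HFrD-NDGA-INS and HFrD-INS (median 0.28), and 44 rose and 8 fell between chow-INS and chow (median 0.20), where 22.1% of all genes passed. The median over all genes lay between -0.01 and 0.00 in these 5 contrasts. Of 8 collagens measured, 7 rose between HFrD and chow muscle (median 2.29) and 6 fell between HFrD-INS and chow-INS (median -0.53). The collagen Col6a3 was not above background in muscle.

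By role, the small proteoglycans, which decorate collagen fibrils, were the group in which every measured gene, 8 of 8, rose between HFrD and chow muscle (median 1.56). Asporin (Aspn, 4.61 ± 0.10) led them. Of the other matricellular genes 12 of 16 rose and 1 fell (median 1.25), and of the cross-linking and collagen-processing enzymes 11 of 14 rose (median 1.10). Among elastic fibre genes and glycoproteins 12 of 16 rose and 2 fell (median 1.11), among protease inhibitors 7 of 8 rose (median 1.14), and among receptors 9 of 15 rose and 1 fell (median 0.83). Proteases, with 8 of 18 higher and 2 lower (median 0.10), and the TGF-beta ligands, receptors and SMADs, with 4 of 10 higher and 1 lower (median 0.14), had medians near that of all genes. Ltbp2, a latent TGF-beta binding protein of microfibrils (at least 2.95-fold), and Comp, a thrombospondin-family protein of tendon and cartilage (at least 9.58-fold), also rose. Chow muscle was not above background for either, and genes with such a bound are given no rank here. Falls were measured for Nid1, a basement membrane linker (-0.76 ± 0.12), the membrane metalloprotease Adam12 (-0.69 ± 0.20) and the matricellular Ccn1 (-0.68 ± 0.07). Between HFrD-NDGA and HFrD, Timp4 (0.75 ± 0.15), Adam12 (0.64 ± 0.20) and Smad7 (0.56 ± 0.08) rose, Aspn (-3.88 ± 0.10) and the cross-linking enzyme Loxl1 (-3.42 ± 0.13) fell, and Ltbp2 fell at least 2.87-fold.

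**Figure D3:**
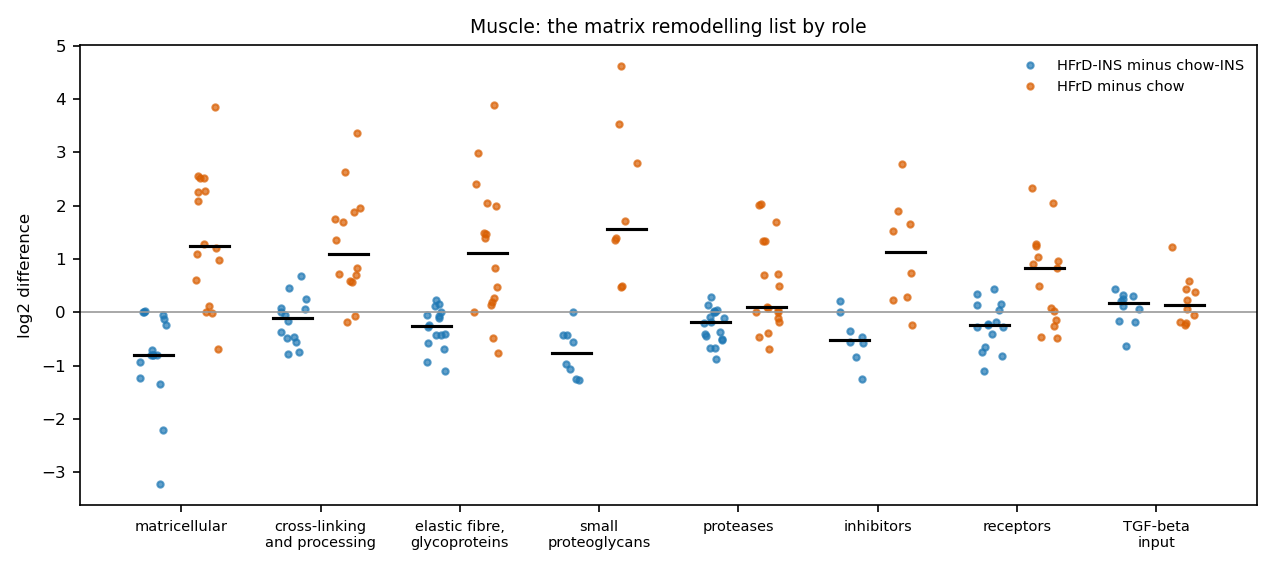
Log2 difference of each measured remodelling gene of the list in muscle (dots), grouped by role, for HFrD-INS minus chow-INS (blue) and HFrD minus chow (orange), with the median of each group of genes (black bar). Orange medians reach 1.56 for the small proteoglycans and stay at 0.10 for the proteases, and blue medians run down to -0.80 for the matricellular genes.

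With INS the same groups lay on the other side. Between HFrD-INS and chow-INS muscle 7 of 8 small proteoglycans (median -0.75), 9 of 16 matricellular genes (median -0.80) and 6 of 8 inhibitors (median -0.51) fell, and none of these 3 groups had a gene that rose. The matricellular Ccn5 fell by 2.21 ± 0.13, Comp at least 7.95-fold and osteopontin (Spp1) at least 1.37-fold. The collagen prolyl hydroxylase subunit P4ha1 (0.69 ± 0.13), the inhibitory Smad7 (0.44 ± 0.08) and the collagen-binding integrin Itga1 (0.35 ± 0.11) rose. Between HFrD-NDGA-INS and HFrD-INS, Ccn5 rose by 1.75 ± 0.13, Comp at least 2.55-fold and biglycan (Bgn) by 0.86 ± 0.10, while Nid1 (-0.57 ± 0.12), P4ha1 (-0.53 ± 0.13) and Ccn1 (-0.27 ± 0.07) fell. In chow-INS against chow muscle Comp rose at least 8.05-fold, Ccn5 by 2.01 ± 0.13 and Aspn by 1.70 ± 0.10, while Itga1 (-1.86 ± 0.11), Nid1 (-0.82 ± 0.12) and P4ha1 (-0.54 ± 0.13) fell.

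Markers of regenerating muscle, macrophages and fibroblasts had their highest sums in HFrD muscle, where the 5 genes were also highest, while tendon and myofibroblast markers had no such peak. The summed intensity of 6 regenerating muscle markers was 50126 to 51616 in HFrD muscle and 4747 to 5064 in chow muscle, and between 4526 and 7418 in the other 4 groups. Embryonic myosin Myh3 (7.70 ± 0.07), perinatal myosin Myh8 (6.44 ± 0.11), the fusion protein Mymk (5.26 ± 0.13) and Myog (2.02 ± 0.08) rose in HFrD against chow muscle. Myod1 differed by -0.21 ± 0.08 and did not pass, and Pax7 was not above background. The summed macrophage markers, 6 of 7 of which rose, were at 8417 to 8947 in HFrD muscle and 2214 to 2254 in chow muscle, and the summed fibroblast markers, 6 of 7 of which rose, were at 8008 to 8358 and 3128 to 3453. Tendon marker sums were at 4309 to 4436 in HFrD muscle, overlapping chow-INS muscle, and at 3285 to 3396 in chow muscle. Of 5 tendon markers 4 fell in HFrD-INS against chow-INS muscle, with sums of 2202 to 2369 in HFrD-INS and 4145 to 4379 in chow-INS and a difference of -1.57 ± 0.05 for Tnmd. In the same contrast 4 of 7 fibroblast markers fell and 1 rose, and their sum was 4155 to 4354 in HFrD-NDGA-INS, 3304 to 3340 in HFrD-INS and 4956 to 5121 in chow-INS muscle. Of 7 macrophage markers 4 fell and none rose, with sums of 2489 to 2565, 2092 to 2280 and 3143 to 3167 in these 3 groups. Of 5 myofibroblast and smooth muscle markers 4 fell and 1 rose, with sums of 2545 to 2952, 1294 to 1370 and 2361 to 2512. Without INS their sums were 1969 to 2214 in HFrD muscle and 1275.5 to 1310 in chow muscle, so HFrD lay below HFrD-NDGA-INS and chow-INS. In the muscle groups with INS, Cd34 and Dpp4 of the fibroblast markers and Cd163 and Itgam of the macrophage markers were not above background. All 6 hepatocyte markers were also above background in muscle, with sums of 9852 to 10102 in HFrD, 17491 to 19325 in chow and up to 29378 in HFrD-NDGA muscle. The part of these cells in the differences of the 5 genes was not tested.

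Adipose tissue had the 5 genes at other settings: Postn and Sparc were high on chow and lower on both fructose diets, while Fn1 and Lox followed their own order. The choice of genes rests on arrays without INS here too, so the first values are a description. Among all genes 54.3% passed between HFrD and chow, with a median of -0.11, and 51% between HFrD-NDGA and HFrD, with a median of 0.10. Centring each array on its median put the all-gene median of HFrD against chow at -0.47 in fat, against -0.22 in muscle and 0.23 in liver. Postn had 5704, 5991 and 5696 in HFrD-NDGA fat, 6399, 6952 and 7090.3 in HFrD fat and 10967, 10485 and 9422 in chow fat, with differences of -0.59 ± 0.07 for HFrD against chow and -0.23 ± 0.07 for HFrD-NDGA against HFrD. The second of these turned to 0.09 when arrays were centred on their medians. Sparc had 9899, 9127 and 9819 in HFrD-NDGA fat, 12852, 14087 and 13056 in HFrD fat and 15150.0, 16400.1 and 15593 in chow fat, with differences of -0.24 ± 0.07 and -0.47 ± 0.07. With centring these became -0.81 and -0.16, and without scaling -0.34 and -0.26. For both genes the 3 diets did not overlap.

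Lox and Fn1 had another order in fat without INS. Lox had 304, 293 and 329.7 in HFrD-NDGA fat, 217, 203 and 169.9 in HFrD fat and 313, 330.3 and 318 in chow fat, so that HFrD stood below both others (-0.71 ± 0.08 against chow, and 0.66 ± 0.08 for HFrD-NDGA against HFrD). Fn1 had 18214, 17688 and 18511 in HFrD-NDGA fat, 15521, 14460.4 and 15770.2 in HFrD fat and 13593, 14891 and 14757 in chow fat. Its HFrD and chow arrays overlapped, and the difference of 0.08 ± 0.05 turned to -0.49 with arrays centred on their medians and to -0.02 without scaling. Tnc was detected on 3 of 18 adipose arrays, 2 of chow-INS and 1 of HFrD-INS, and its levels ran from 35.9 to 89.8. The HFrD group that stood apart in fat also carried male accessory gland transcripts, with all 4 measured markers above background and a sum of 81894 to 90216, against 232 to 264 in chow fat and 2546 to 2767 in HFrD-NDGA fat. Its mesothelial sum was 19823 to 21667, against 11574 to 12388 in chow fat, and its skeletal muscle sum 7358 to 8151, against 35072 to 36025 in chow fat. Their part in the adipose differences was not tested.

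With INS, Sparc and Postn were again lower on the fructose diets, and most so with NDGA. Between HFrD-INS and chow-INS fat 24.1% of all genes passed, between HFrD-NDGA-INS and HFrD-INS 26%, and between HFrD-NDGA-INS and chow-INS 31.7%. Of the 5 genes 2 rose and 2 fell in the first contrast, 2 fell in the second, and 2 rose and 2 fell in the third. Sparc had 9169, 8198 and 9379 in HFrD-NDGA-INS fat, 15291, 17176 and 14891 in HFrD-INS fat and 23056, 23056 and 20068 in chow-INS fat. It fell in all 3 contrasts, with differences of -0.48 ± 0.07 for HFrD-INS against chow-INS (adjusted p = 0.000222), -0.82 ± 0.07 for HFrD-NDGA-INS against HFrD-INS (adjusted p = 3.58e-06) and -1.31 ± 0.07 for HFrD-NDGA-INS against chow-INS (2.47-fold, adjusted p = 1.75e-08), and the 3 groups did not overlap. The first of these was -0.16 without scaling (adjusted p = 0.262).

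Postn had 5090.1, 5761 and 6404 in HFrD-NDGA-INS fat, 7699.5, 7985 and 8039.7 in HFrD-INS fat and 9362, 9081 and 9185 in chow-INS fat, in the same order as Sparc and with no overlap. It fell by 0.69 ± 0.07 between HFrD-NDGA-INS and chow-INS (adjusted p = 9.07e-06) and differed by -0.47 ± 0.07 between HFrD-NDGA-INS and HFrD-INS (adjusted p = 0.000434, but 0.183 with arrays centred on their medians, at -0.25). Its fall of 0.22 ± 0.07 between HFrD-INS and chow-INS (adjusted p = 0.0429) turned to 0.07 without scaling and did not pass with centring (-0.29, adjusted p = 0.130). That call was lost when any 1 of the 6 arrays was left out, with adjusted p of 0.111, 0.0886 and 0.0786 without HFrD-INS replicates 1, 2 and 3 and of 0.109, 0.0821 and 0.0889 without chow-INS replicates 1, 2 and 3.

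Lox and Fn1 moved the other way in fat with INS. Lox had 345, 325 and 363 in HFrD-NDGA-INS fat, 335, 364 and 381 in HFrD-INS fat and 271, 267 and 297 in chow-INS fat, and rose by 0.37 ± 0.08 between HFrD-INS and chow-INS (adjusted p = 0.00490). Fn1 had 19797, 19431 and 17992 in HFrD-NDGA-INS fat, 20241, 20741 and 19797 in HFrD-INS fat and 15746, 15539 and 16561 in chow-INS fat, and rose by 0.35 ± 0.05 (adjusted p = 8.25e-05). Both calls were lost with arrays centred on their medians (adjusted p = 0.0913 for Lox and 0.127 for Fn1). Every fructose array with INS exceeded every chow-INS array for both genes, and HFrD-NDGA-INS and HFrD-INS overlapped (-0.06 ± 0.08 for Lox, adjusted p = 0.665, and -0.09 ± 0.05 for Fn1, adjusted p = 0.195). Centring turned these 2 small differences to 0.07 and 0.10. Cell markers moved in the same arrays: between HFrD-INS and chow-INS fat 5 of 5 mesothelial and 5 of 6 hepatocyte markers rose, and 6 of 7 macrophage and 3 of 7 fibroblast markers fell. Mesothelial sums were 24829 to 25184 in HFrD-NDGA-INS, 18961 to 21739 in HFrD-INS and 10247 to 11866 in chow-INS fat, and hepatocyte sums 42314 to 44284, 63715 to 68069 and 43417 to 48864. Macrophage sums were 24692 to 25137, 23759 to 25271 and 34124 to 35058 in the same order, and skeletal muscle sums 1803 to 1898, 2423 to 2582 and 5518 to 5738. Of these 4 lists only the hepatocyte marker Ttr, in HFrD-NDGA-INS fat, and the macrophage marker Cd163, in all 3 groups, were not above background. Their part in the differences of Sparc, Postn, Lox and Fn1 was not tested.

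**Figure D4:**
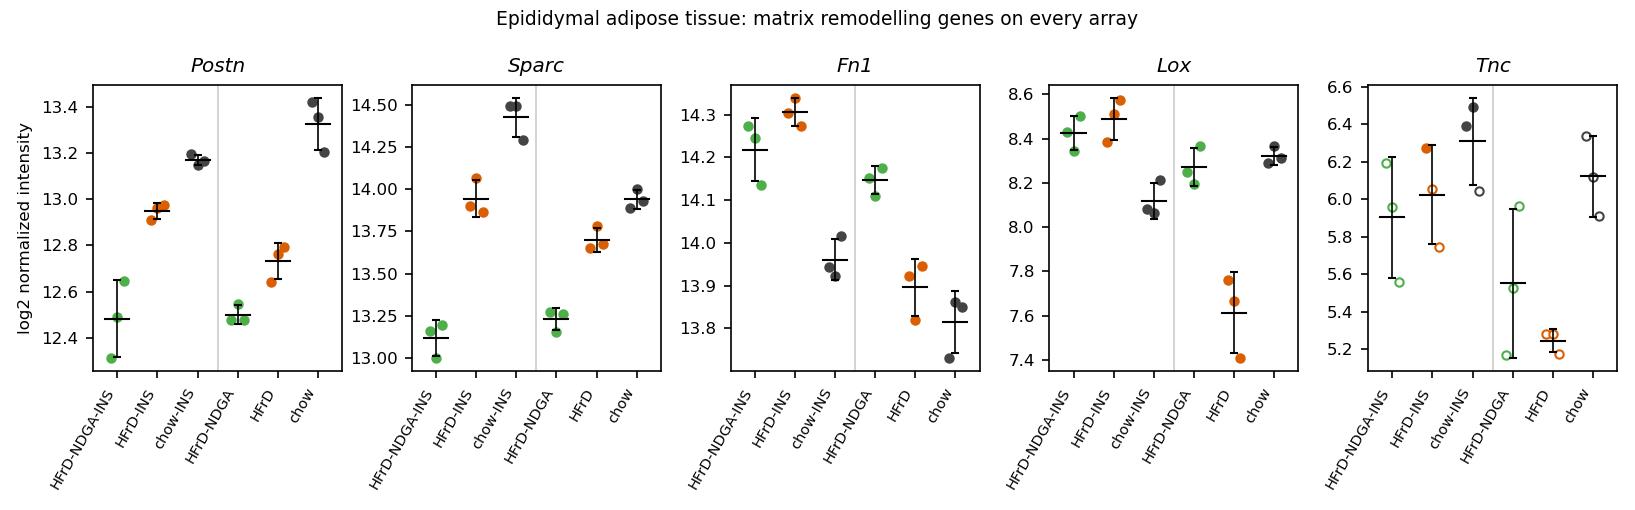
Log2 normalized intensity of the 5 genes on each of 18 adipose arrays (dots, open where the probe was not detected), with the mean (black bar) and SD (error bars) of 3 arrays and groups with INS left of the grey line; each panel has its own axis. Postn and Sparc are lowest in the 2 NDGA groups (5090.1 to 6404 for Postn), Lox dips in HFrD alone, and 15 of 18 Tnc dots are open.

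The difference between the HFrD effects with and without INS in fat was 1.08 ± 0.12 for Lox, for which HFrD-INS lay above chow-INS and HFrD below chow without overlap. It was 0.37 ± 0.10 for Postn, 0.26 ± 0.07 for Fn1 and -0.24 ± 0.10 for Sparc, against a median of 0.11 over all genes. These last 3 moved with the scaling, to 0.89 for Postn, 0.81 for Fn1 and 0.29 for Sparc with centring, where the median over all genes was 0.34, and to 0.78, 0.70 and 0.18 without scaling, where it was 0.23. Between chow-INS and chow fat the difference was 0.49 ± 0.07 for Sparc (0.15 with centring), 0.15 ± 0.05 for Fn1 (-0.21 with centring), -0.16 ± 0.07 for Postn and -0.20 ± 0.08 for Lox, with no overlap for any of the 4.

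Of the other remodelling genes measured in fat, 14 rose and 53 fell between HFrD and chow (median -0.18), where 3357 of all 19791 genes rose and 7390 fell. Between HFrD-NDGA and HFrD 42 rose and 15 fell (median 0.15), where 6787 of all genes rose and 3308 fell, so the list leaned the way of all genes in both contrasts. With INS 33 rose and 21 fell between HFrD-INS and chow-INS (median 0.10, against 0.00 over all genes), where 2329 of all genes rose and 2446 fell. Between HFrD-NDGA-INS and HFrD-INS 29 rose and 14 fell (median 0.07), where 3176 of all genes rose and 1975 fell. There the list again leaned the way of all genes. Between HFrD and chow fat, without INS, the collagen receptor Ddr1 (3.15 ± 0.09) and fibulin 5 (Fbln5, 1.70 ± 0.12) rose and the protease Mmp7 rose at least 1.63-fold. Nid1 (-2.55 ± 0.06) fell there, the integrin Itga8 fell at least 2.17-fold and the neural tenascin Tnr at least 1.04-fold. Between HFrD-NDGA and HFrD fat these partly turned: Nid1 (1.65 ± 0.06), the collagen receptor Ddr2 (1.38 ± 0.10) and thrombospondin 1 (Thbs1, 1.29 ± 0.12) rose, and Ddr1 (-2.93 ± 0.09), Fbln5 (-1.59 ± 0.12) and Mmp7 (-0.87 ± 0.20) fell. The HFrD fat arrays of both contrasts are those that carried male accessory gland transcripts, whose part in these differences was not tested. Osteopontin (Spp1) rose by 1.77 ± 0.08 in HFrD-INS against chow-INS fat and Mmp23 by 1.05 ± 0.11. The fibroblast protease Fap fell by 1.31 ± 0.17, thrombospondin 4 (Thbs4) at least 1.71-fold and the gelatinase Mmp9 at least 1.81-fold. Between HFrD-NDGA-INS and HFrD-INS fat, Fap (0.90 ± 0.17), fibulin 1 (Fbln1, 0.90 ± 0.13) and fibromodulin (Fmod, 0.74 ± 0.05) rose, and Adam12 (-1.20 ± 0.34), Ltbp2 (-1.14 ± 0.12) and Ccn5 (-1.05 ± 0.05) fell.

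In liver Postn and Tnc were out of reach: Postn lay at the floor of 16 on all 18 arrays and Tnc between 16 and 30.3, and neither was detected on any array, so neither has a fold. Lox, Sparc and Fn1 were above background in every group. Among all genes 20.6% passed between HFrD and chow and 19.6% between HFrD-NDGA and HFrD. Lox had 232, 232 and 283 in HFrD-NDGA liver, 201, 172 and 186 in HFrD liver and 361, 407 and 352 in chow liver. HFrD stood 2-fold below chow (-1.0 ± 0.11) and HFrD-NDGA 0.41 ± 0.11 above HFrD, and the 3 diets did not overlap. The second Lox probe differed by -1.33 and 0.38 in these contrasts, and it was not above background in HFrD and HFrD-NDGA liver.

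Sparc and Fn1 in liver were highest on HFrD among the arrays without INS. Sparc had 259, 267 and 178 in HFrD-NDGA liver, 416, 420.5 and 455 in HFrD liver and 334, 361 and 209 in chow liver (0.55 ± 0.21 for HFrD against chow, and -0.90 ± 0.21 for HFrD-NDGA against HFrD). Fn1 had 28812, 26859.8 and 29345 in HFrD-NDGA liver, 39161, 37222 and 38500.3 in HFrD liver and 32999.8, 32423 and 31886 in chow liver (0.24 ± 0.04, and -0.44 ± 0.04). HFrD arrays exceeded all arrays of the other 2 diets for both genes. Fibroblast marker sums moved alongside, at 14146 to 14328 in HFrD liver, 7580 to 8384 in HFrD-NDGA liver and 6603 to 7009 in chow liver, although of the 7 markers only 1 rose between HFrD and chow. With INS they were at 7334 to 7655 in HFrD-NDGA-INS liver, 15719 to 17545 in HFrD-INS liver and 13866 to 14640 in chow-INS liver. Between HFrD-INS and chow-INS, where Sparc was lower, the fibroblast sum was thus higher, and between chow-INS and chow, where Sparc was higher, so was the sum. Cd34 was not above background in any liver group, and Thy1 was so only in chow and HFrD-NDGA-INS liver. Summed stellate cell markers had another order, at 1852.5 to 2017 in HFrD-NDGA, 2253 to 2407 in HFrD and 2409 to 2551 in chow liver. Of these, Hand2 was not above background in any liver group, and Des was so only in chow and chow-INS liver. The part of fibroblasts and stellate cells was not tested.

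**Figure D5:**
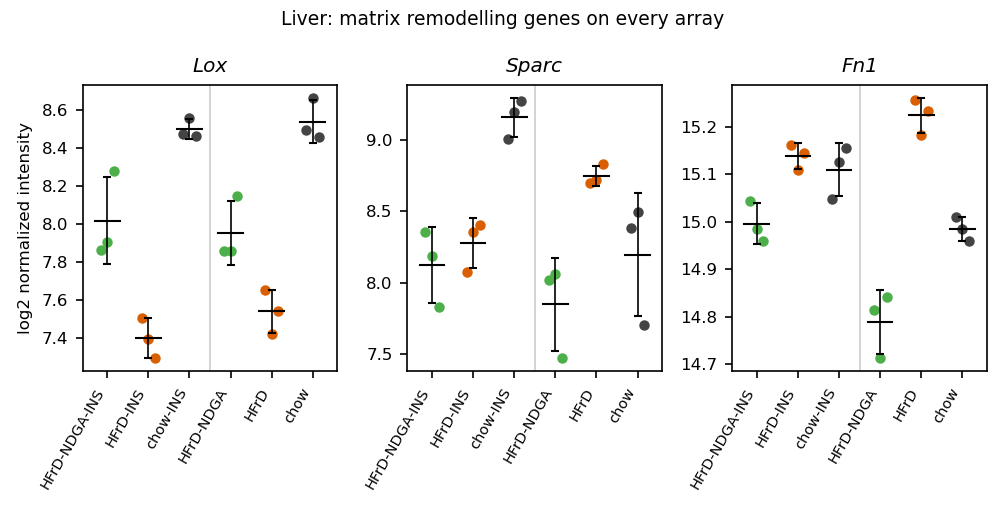
Log2 normalized intensity of Lox, Sparc and Fn1 on each of 18 liver arrays (dots), with the mean (black bar) and SD (error bars) of 3 arrays and groups with INS left of the grey line; each panel has its own axis. Lox is lowest on HFrD on both sides of the line (157 to 182 with INS and 172 to 201 without), and Sparc is highest in chow-INS liver.

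With INS the Lox pattern of liver recurred and the Sparc pattern did not. Between HFrD-INS and chow-INS liver 11.5% of all genes passed and 2 of the 5 genes fell, and between HFrD-NDGA-INS and HFrD-INS 17.6% passed, with 1 of the 5 higher and 1 lower. Lox had 233, 240.1 and 311 in HFrD-NDGA-INS liver, 182, 168 and 157 in HFrD-INS liver and 356, 378 and 353 in chow-INS liver, without overlap. It fell by 1.10 ± 0.11 between HFrD-INS and chow-INS (2.15-fold, adjusted p = 2.15e-05) and rose by 0.62 ± 0.11 between HFrD-NDGA-INS and HFrD-INS (adjusted p = 0.00194). The difference between the HFrD effects on Lox with and without INS was -0.10 ± 0.16, which became -0.27 with the mean of both probes, -0.33 with centring and 0.0652 without scaling.

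Sparc had 327, 292 and 228 in HFrD-NDGA-INS liver, 269.7, 327 and 339 in HFrD-INS liver and 515, 587 and 618 in chow-INS liver. It fell by 0.88 ± 0.21 between HFrD-INS and chow-INS (adjusted p = 0.0147), a call lost without HFrD-INS replicate 1 (-0.78, adjusted p = 0.0653), chow-INS replicate 2 (-0.86, 0.0511) or chow-INS replicate 3 (-0.82, 0.0550). HFrD-INS lay below chow-INS where HFrD had lain above chow, and the difference of these differences was -1.43 ± 0.30. Between HFrD-NDGA-INS and HFrD-INS it differed by -0.15 ± 0.21 (adjusted p = 0.716), turning to 0.22 without scaling. Chow-INS exceeded chow liver by 0.96 ± 0.21 for Sparc and by 0.12 ± 0.04 for Fn1, without overlap.

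Fn1 had 33764, 32423 and 31843 in HFrD-NDGA-INS liver, 36663, 35322 and 36238 in HFrD-INS liver and 33864, 35779.7 and 36495 in chow-INS liver. It fell by 0.14 ± 0.04 between HFrD-NDGA-INS and HFrD-INS (adjusted p = 0.0179), which did not pass without HFrD-INS replicate 1 (-0.13, adjusted p = 0.0566), HFrD-INS replicate 3 (-0.14, 0.0581) or HFrD-NDGA-INS replicate 3 (-0.13, 0.0737). Nor did it pass with a floor of 1 (adjusted p = 0.121), an offset of 16 (0.141), no scaling (0.413) or detected genes only (0.0709). Its ranges in HFrD-INS and chow-INS liver overlapped (0.03 ± 0.04, adjusted p = 0.754), with a value of -0.00268 without chow-INS replicate 1. The difference between the HFrD effects on Fn1 with and without INS was -0.21 ± 0.05, and -0.65 with centring. 

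Among the other remodelling genes of liver 15 rose and 14 fell between HFrD and chow (median 0.00), where 2566 of all genes rose and 1510 fell. Between HFrD-NDGA and HFrD 9 rose and 21 fell (median -0.05), where 2006 of all genes rose and 1876 fell. Between HFrD-INS and chow-INS 6 rose and 10 fell (median -0.08), where 1013 of all genes rose and 1259 fell. Between HFrD-NDGA-INS and HFrD-INS 9 rose and 15 fell (median -0.02), where 1443 of all genes rose and 2033 fell. In both INS contrasts the list thus leaned the way of all genes. Between HFrD and chow the matricellular Comp (0.89 ± 0.18) and Ccn2 (0.82 ± 0.10) rose, the fibulin Efemp1 rose at least 2.05-fold, and Adam12 (-2.06 ± 0.56), Nid1 (-1.11 ± 0.12) and syndecan 1 (Sdc1, -0.69 ± 0.07) fell. Between HFrD-NDGA and HFrD, decorin (Dcn, 0.93 ± 0.04) and Timp4 (0.93 ± 0.16) rose, Thbs4 rose at least 1.29-fold, the activin subunit Inhba (-1.37 ± 0.04) and Itga1 (-0.90 ± 0.11) fell, and Comp fell at least 1.41-fold. Comp rose at least 2.29-fold in HFrD-INS against chow-INS liver and fell at least 2.80-fold in HFrD-NDGA-INS against HFrD-INS liver. In the first of these INS contrasts P4ha1 (0.52 ± 0.11) and Timp3 (0.47 ± 0.10) also rose, transglutaminase 2 (Tgm2, -0.61 ± 0.05) and Mmp13 (-0.58 ± 0.14) fell, and Spp1 fell at least 1.49-fold. In the second, Thbs4 (1.26 ± 0.21), Dcn (1.15 ± 0.04) and lumican (Lum, 0.47 ± 0.06) rose, and Ccn1 (-1.26 ± 0.17) and Inhba (-1.07 ± 0.04) fell.

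On a scale shared by all 54 arrays, each gene had its own order of tissues. The geometric mean of Postn was 14293.6 in HFrD muscle, above every adipose group (4988 to 9942), and the other 5 muscle groups lay between 907 and 1346, above liver at the floor. In that order HFrD-NDGA and HFrD-NDGA-INS fat overlapped, as did chow and chow-INS muscle and HFrD-NDGA and HFrD-INS muscle. Tnc was highest in HFrD muscle (1871), followed by the other muscle groups (117 to 189), by fat (32.5 to 65.9) and by liver, and HFrD-NDGA-INS, chow-INS and HFrD-INS muscle overlapped as neighbours. Sparc had all 6 adipose groups on top (8407 to 23487), then HFrD muscle (3122), the other muscle groups (1116 to 1799) and liver (252 to 654), with no overlap between tissues. Fn1 was highest in liver (24767 to 33797). HFrD muscle, at 18199, was the only muscle group within the range of fat (14869 to 21623) and overlapped its neighbours there, while the other muscle groups lay at 3539 to 5914. Lox was at 779 in HFrD muscle, above every other group. Chow liver (419) and chow-INS liver (407) came next and overlapped, and the 15 groups below, down to 150.5 in chow muscle, each overlapped the next.

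The genes that followed each of the 5 most closely over the 18 group means, each tissue centred on its own mean, are a description and share the HFrD muscle arrays as their most distant point. Postn went with Macf1 (Pearson r = 0.955), Tuba1a (0.952) and Armcx2 (0.951), Tnc with LOC100359678 (0.969), Grn (0.962) and Macf1 (0.961), and Fn1 with Gltp (0.963), Tns3 (0.959) and Gpx8 (0.959). Lox went with Klhl5 (0.913), Ifitm3 (0.909) and Cnn3 (0.896), and Sparc with LOC619574 (0.938), Arpc3 (0.932) and Rnf115 (0.930). Among themselves, Postn and Tnc were the closest pair (0.958) and Lox and Sparc the most distant (0.432). Without the HFrD muscle mean, r was 0.791 for Postn and Tnc, 0.564 for Postn and Sparc, which had been 0.654, 0.361 for Postn and Fn1, which had been 0.841, and 0.155 for Lox and Sparc, so that all 10 pairs had a lower r and none turned negative.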

How the data were processed

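RNA of 9 combinations of tissue and diet, without and with the INS label, was hybridized by the authors to a single-colour rat array (Rat OneArray), 3 repeats of each pool. The authors deposited one intensity and one detection p-value per probe and array. The sheet is named normalized, but its header describes raw, background-subtracted intensity and the array medians differ, so it was treated as not scaled between arrays. The other deposited copy of the table was equal in all 1315332 cells. The 5 genes and all gene lists were chosen with earlier results of these data known.

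Of 24358 probes, 21270 carried a single symbol, 1175 several and 1913 none (7.85%), and only the last group was dropped. A probe naming more than 1 gene stayed in under its joined symbols, so the genes counted below include such joined names. Intensities were quantile normalized within a tissue, set to at least 16 and put on the log2 scale, and the probe with the highest mean stood for a gene, which left 19791 genes. A group was above background where the deposited detection p-value was under 0.05 on at least 1 of its arrays. Where the dimmer group was not, the fold is a lower bound against the lowest detected signal. Between 9.41 and 26.8% of values on an array lay below the floor. Contrasts between the 6 groups of a tissue were fitted with limma 3.58.1 in R 4.3.3 (with data.table, version 1.17.8) by lmFit and eBayes, with Benjamini-Hochberg adjustment over all genes, and the fit was tested on simulated data. Contrasts that held arrays without INS, interactions included, are given for the 5 genes without a p, since the choice of genes rests on those arrays. Listed genes are given no p in any contrast, since the lists were chosen with earlier results known, and their counts past the threshold are a description. From the list, the 3 genes with the largest fitted difference in each direction among those past the threshold are named for the comparisons between neighbouring diets and, in muscle, between chow-INS and chow, except 1 gene that is not reported here. Genes known only by a bound are not ranked. Collagens and cell type markers are named where their list is given. Levels across tissues and likeness used all 54 arrays normalized together. Scaling, floor, offset, filter, probe rule, moderation, call rule, the arrays fitted together and left-out arrays were varied.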

Additional observations from a re-analysis of the deposited data

Results flagged for a closer look

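In 4 cases every HFrD array lay on the other side of every chow array with INS than without it, and in none of them was the difference between the HFrD effects tested, since the arrays without INS led to the choice of genes. In adipose tissue Lox was higher in HFrD-INS than in chow-INS and lower in HFrD than in chow, and the difference of the 2 log2 differences was 1.08 ± 0.12 (SE). Sparc in liver (-1.43 ± 0.30), Fn1 in muscle (-3.22 ± 0.11) and Sparc in muscle (-1.78 ± 0.18) were lower in HFrD-INS than in chow-INS and higher in HFrD than in chow.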

How the results depend on the processing

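No paired analysis was possible because the titles give each array a number of its own and replicates were numbered in accession order only. Of 81 single values of the 5 genes, 80 kept their direction and call, or where untested moved by less than 1 SD, with a floor of 64, 79 with a floor of 1, 80 with an ordinary linear model, 74 with all 54 arrays normalized together, 47 with arrays centred on their medians and 41 without scaling. Values changed sign with centring for adipose Fn1 (-0.49 for HFrD against chow, 0.0978 for HFrD-NDGA-INS against HFrD-INS and -0.21 for chow-INS against chow), adipose Lox (0.0670, HFrD-NDGA-INS against HFrD-INS), adipose Postn (0.0882, HFrD-NDGA against HFrD), the adipose Sparc interaction (the difference between the HFrD effects with and without INS, 0.29) and liver Lox (0.18, chow-INS against chow, and 0.0596 as the mean of its probes). Without scaling they changed sign for the liver Lox interaction (0.0652), the adipose Sparc interaction (0.18), adipose Fn1 for HFrD against chow (-0.02), muscle Lox (-0.000933) and liver Sparc (0.22) for HFrD-NDGA-INS against HFrD-INS, and adipose Postn (0.0749) and Tnc (0.15) for HFrD-INS against chow-INS, and with a floor of 64 for the adipose Tnc interaction (-0.0478). With 1 array left out, ranges that crossed 0 were -0.00268 to 0.0509 for liver Fn1 (HFrD-INS against chow-INS), -0.0818 to 0.0243 for liver Lox and -0.14 to 0.0365 for muscle Postn (chow-INS against chow), and -0.0510 to 0.15 for muscle Lox and -0.26 to 0.0531 for adipose Tnc (HFrD-NDGA-INS against HFrD-INS). The cause was not tested.

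The muscle median of the 5 genes was 2.71 for HFrD against chow and -2.20 for HFrD-NDGA against HFrD without scaling, 2.82 and -2.24 with the mean of all probes, and -1.89 for the second with all arrays normalized together. With 1 array left out it ran from 2.41 to 2.52 and from -2.10 to -1.91. A call that also asked for a 2-fold difference left, for HFrD-INS against chow-INS and HFrD-NDGA-INS against HFrD-INS, 0 and 0 of the 5 genes in fat (4 and 2 without it), 1 and 0 in liver (2 and 2) and 0 and 0 in muscle (3 and 2). It left 10 and 5 list genes in fat, 3 and 3 in liver and 46 and 44 in muscle for HFrD against chow and HFrD-NDGA against HFrD, and 8 and 3, 2 and 7, and 10 and 2 for the same contrasts with INS. Centring left 1 and 1 of the 5 genes in fat with INS, and 32 list genes in fat and 3 in liver for HFrD-INS against chow-INS and 16 in liver for HFrD-NDGA against HFrD. Without scaling the 5 genes gave 2 calls in fat and 1 in muscle for HFrD-INS against chow-INS and 1 in liver for HFrD-NDGA-INS against HFrD-INS, which was also 1 with a floor of 1, an offset of 16 or detected genes only, and the list gave 19 in liver for HFrD against chow. With 1 array left out, calls among the 5 genes for these INS contrasts ran 3 to 3 and 2 to 2 in fat, 1 to 2 and 1 to 2 in liver, and 2 to 3 and 2 to 3 in muscle. List calls ran 58 to 64, 53 to 59, 47 to 53 and 36 to 45 in fat, 21 to 26, 19 to 30, 12 to 15 and 16 to 27 in liver, and 73 to 76, 71 to 73, 50 to 53 and 38 to 41 in muscle, for HFrD against chow, HFrD-NDGA against HFrD, and the same with INS. Without the 3 HFrD arrays that stood apart, a choice made after seeing the data, calls among the 5 genes were lost for muscle Lox (adjusted p = 0.0652) and adipose Postn (0.0557) in HFrD-INS against chow-INS. The same calls were lost when the 9 INS arrays of a tissue were normalized and fitted apart from those without INS (adjusted p = 0.109 for muscle Lox and 0.0887 for adipose Postn). Probes near the detection limit, with the lowest detected signal between 64 and 116, limit Tnc in fat, both Postn and Tnc in liver, and Tnc in HFrD-NDGA and chow muscle. With an offset of 16 the muscle differences of Tnc were 3.68 for HFrD against chow and -3.85 for HFrD-NDGA against HFrD.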
